A study of Homo sapiens with 8 samples.

Results

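The cytosolic ribosomal protein genes encode the proteins of the ribosome outside mitochondria. They were chosen by symbol alone: RPS or RPL with a number and, in some genes, a closing A, X or L, the acidic stalk proteins RPLP, and RPSA. Pseudogenes and the RPS6K kinases, whose symbols have other forms, were left aside. Of the 19775 genes read by the arrays, 57 met the rule, 21 of the small subunit and 36 of the large subunit. The RefSeq annotation holds 82 protein-coding symbols of this form. Of these, 57 were measured, 15 were read only by probe sets that name several genes, and 10 were not analysed here. Where several probe sets named a gene alone, as for 34 members, the one of highest mean signal stood for the gene.

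The small subunit of the ribosome decodes messenger RNA and the large subunit joins amino acids into protein. Cells make ribosomal proteins in balanced amounts, and surplus copies are degraded or, in the case of RPL5 and RPL11, can bind MDM2 and so stabilise p53. Most ribosomal protein messages begin with a cytosine followed by a run of pyrimidines, the terminal oligopyrimidine (TOP) tract, through which the kinase complex mTORC1 and the protein LARP1 control their translation, while the transcription factor MYC is known to raise transcription of many of these genes.

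The cells were MDA-MB-453, a human breast cancer line that expresses the androgen receptor. All were held for 3 days in medium without phenol red that contained 5% serum stripped of steroids with charcoal and dextran. There were 2 arrays of vehicle-treated cells and 2 arrays each of cells given 10 nM 5α-dihydrotestosterone (DHT, an androgen that is not converted to estrogen) for 4 h, 16 h and 48 h, called biological replicates in the labels. The comparisons ask how expression changed over the time course. No time is given for the vehicle arrays, so DHT and time in culture cannot be told apart. The values are log2 signals of Affymetrix probe sets after RMA normalisation, and 1 unit is a doubling on the linear scale. Nothing says that the replicates came from separate cultures on separate days, so p-values measure the spread between these samples, and 2 arrays a group limit the precision of every value.

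The arrays had median log2 signals of 7.59 to 7.63, and replicates correlated across genes at r = 0.995 to 0.997, where genes are not independent. DHT 16 h replicate 2 stood apart from the rest, at -23.1 on the second principal component against -0.51 to 10.8 for the others, and its ACTB 3′ probe set exceeded the 5′ one by 1.52 log2 units, against 0.20 to 0.94. Vehicle replicate 1 stood apart in a pair of members described below, so results were also computed without both arrays. Luminal markers read high, with mean log2 signals of 13.2 for ERBB2, 14.1 for GATA3, 12.1 for FOXA1, 12.6 for KRT8, 13.8 for KRT18 and 13.8 for KRT19. The receptors ESR1 and PGR read 8.5 and 7.4. Markers of basal cells (KRT5 at 8.3, KRT14 at 6.0), of immune and endothelial cells (PTPRC at 7.6, PECAM1 at 9.4) and of fibroblasts (COL1A1 at 10.6, COL1A2 at 8.1) read lower. Among these markers of other cell types KRT5 alone was called in a comparison with vehicle, 0.51 higher at 48 h (adjusted p = 0.0067, limma with Benjamini-Hochberg adjustment). Luminal markers were called too. At 48 h GATA3 fell by 0.85, FOXA1 fell by 0.72 and ERBB2 fell by 0.65, and KRT19 rose by 0.68. At 16 h ERBB2 fell by 0.47 and KRT19 rose by 0.58. The part of these markers in the results below was not tested. In bulk RNA, fewer cells of a type and less RNA per cell cannot be told apart, and each value is relative to the other signals of its array.

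Ribosomal protein genes read slightly higher in nearly all members after 16 h and 48 h of DHT, and few single genes passed the test. The median over the 57 members of the signal in each array was 14.44 and 14.46 in the vehicle arrays, 14.48 and 14.44 at 4 h, 14.61 and 14.62 at 16 h, and 14.65 and 14.67 at 48 h. All 4 arrays at the later times thus lay above all 4 arrays of vehicle and 4 h. The median log2 change against vehicle was -0.016 at 4 h for the members and 0.003 for all genes. It was 0.116 for the members and 0.024 for all genes at 16 h, and 0.137 for the members and 0.012 for all genes at 48 h. The sign of the 4 h median is not settled: it was 0.025 when arrays were scaled on housekeeping genes, a scaling that moved the median of all genes by 0.041. Without DHT 16 h replicate 2 and vehicle replicate 1 the members' medians were 0.103 at 16 h and 0.121 at 48 h.

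**Figure D1:**
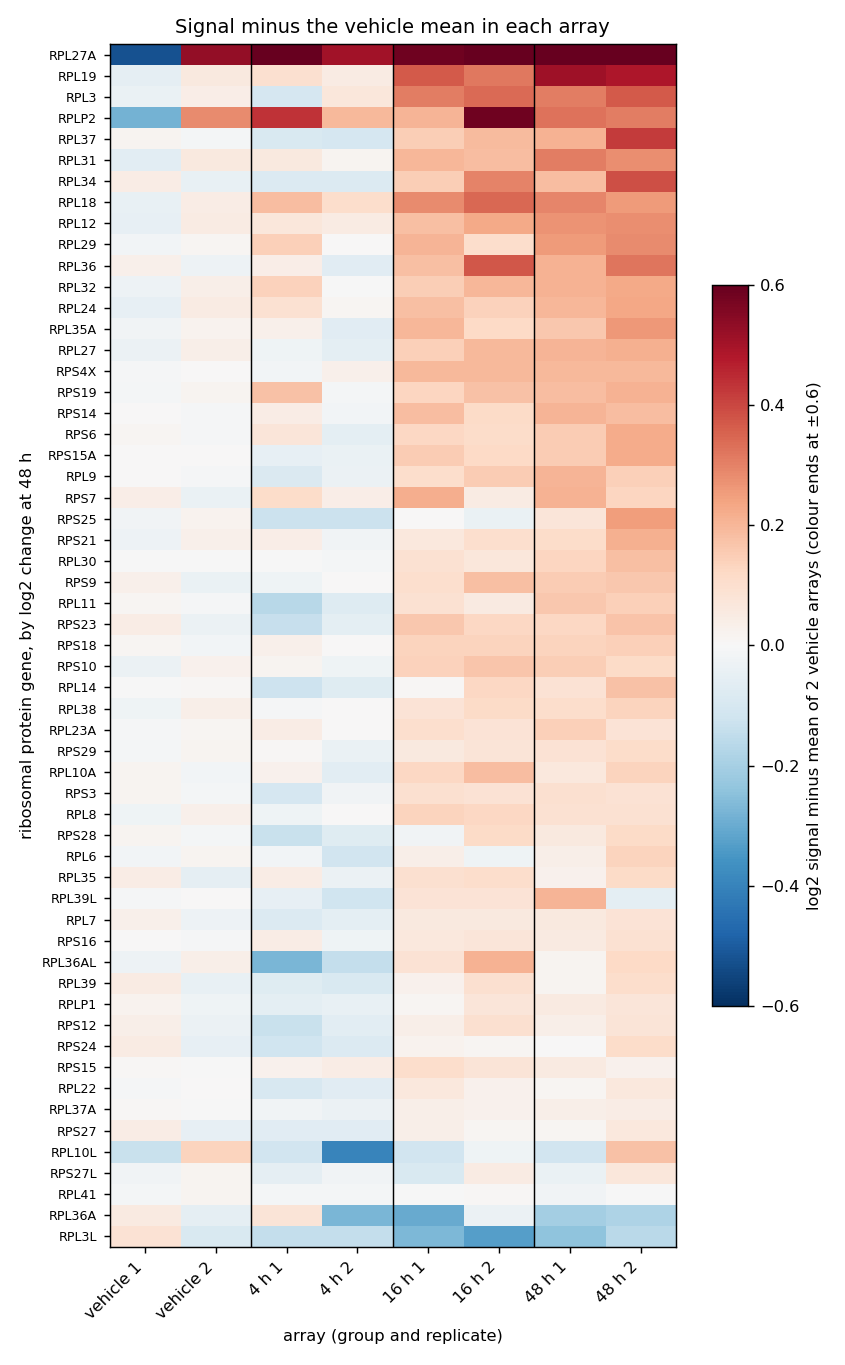
Log2 signal minus the mean of the 2 vehicle arrays for each of the 57 ribosomal protein genes (rows, ordered by the change at 48 h) in each of the 8 arrays (columns); colours end at 0.6 in both directions. The columns of 16 h and 48 h are mostly pale red, and RPL27A and RPLP2 show a low vehicle replicate 1.

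The number of members above 0 was 20 of 57 at 4 h, 52 at 16 h and 54 at 48 h, against 50.9%, 56.3% and 52.8% of all genes. The members that were not above 0 at 16 h were RPL3L, RPL36A, RPL10L, RPS27L and RPS25. At 48 h they were RPL3L, RPL36A and RPL41. RPL3L and RPL36A had mean log2 signals of 6.79 and 6.41, below the array medians of 7.59 to 7.63. No measure of background was used, so their changes may not reflect transcripts. The arrays of the groups often did not overlap. Both DHT arrays lay above both vehicle arrays in 3 members at 4 h, 43 at 16 h and 46 at 48 h, where the share among all genes was 19.4%, 25.9% and 25.8%. Both lay below in 24 members at 4 h, 1 at 16 h and 2 at 48 h, against 20.8%, 21.1% and 26.1% of all genes. The 24 members at 4 h are above the share in all genes, but none of their differences went beyond -0.21 and none passed the test.

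**Figure D2:**
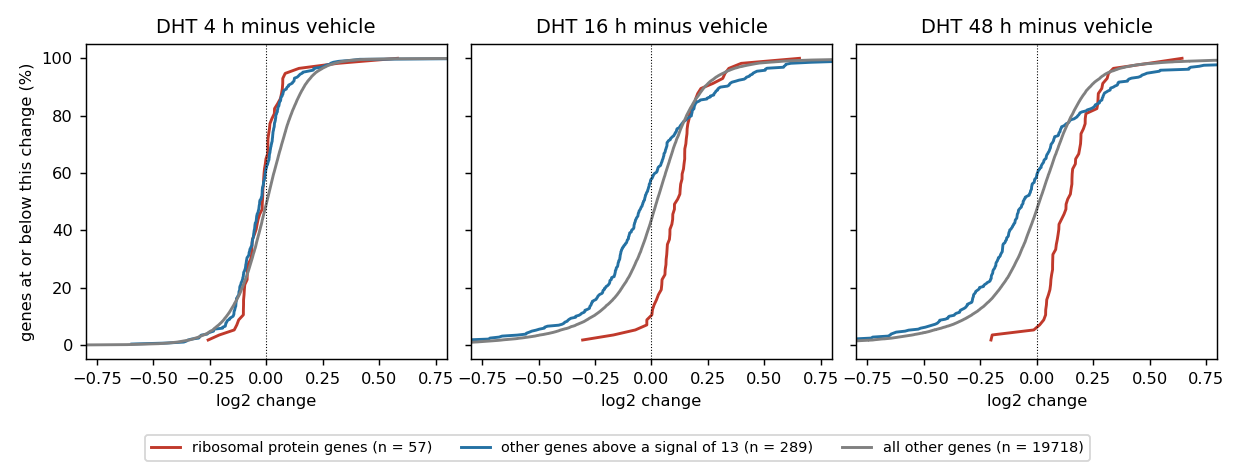
Cumulative share of genes (y axis, percent) at or below each log2 change (x axis) for the 57 ribosomal protein genes, 289 other genes with a mean log2 signal above 13, and all 19718 other genes, at 4, 16 and 48 h. At 16 h and 48 h the curve of the ribosomal protein genes is steep and lies to the right of 0, with medians of 0.116 and 0.137.

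A gene was called where the Benjamini-Hochberg adjusted p of the limma test was below 0.05. At 4 h no member was called in either direction, where 0.106% of all genes were called higher and 0.0708% lower. Only RPL27A had an unadjusted p below 0.05 at that time, against 7.84% of all genes. With an intensity trend limma called no member at 4 h, where 33 of the 19775 genes were called higher and 26 lower. An ordinary linear model called 0 of the 19775 genes at 4 h, so it says nothing about the members. At 16 h 1 member was called higher and none lower (2.55% and 4.3% of all genes). At 48 h 2 members were called higher and none lower (3.13% and 6.38% of all genes). With the spread used in this test the counts of called members were close to the background, and the pattern lay in the shared direction of small differences. The counts depend on that spread. With an intensity trend, described below, 5 members at 16 h and 14 at 48 h were called higher, against 2.99% and 3.45% of all genes. An unadjusted p below 0.05 was found in 9 members at 16 h, 8 of them higher, and in 16 at 48 h, all of them higher. Among all genes 19.9% and 22% had such a p in either direction. Of the 19775 genes, those with such a p that were higher numbered 1872 at 16 h and 1794 at 48 h.

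RPL19, a protein of the large subunit that takes part in a bridge to the small subunit, had the clearest change. Its log2 signal was 14.01 and 14.12 in vehicle arrays, 14.16 and 14.11 at 4 h, 14.43 and 14.38 at 16 h, and 14.57 and 14.55 at 48 h. The groups at 16 h and 48 h overlapped neither with vehicle nor with each other. Its log2 change was 0.07 at 4 h, which was not called. It rose by 0.34 ± 0.09 (SE) at 16 h (adjusted p = 0.0444, limma) and by 0.49 ± 0.09 at 48 h (1.41-fold, adjusted p = 0.00492, limma). The call at 16 h was lost when any 1 of the 8 arrays was left out (adjusted p 0.0652 to 0.281, limma), and that at 48 h only without vehicle replicate 1 (0.0589).

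RPL3, which lies close to the site where peptide bonds form, read 14.26 and 14.34 in vehicle arrays, 14.20 and 14.37 at 4 h, 14.61 and 14.64 at 16 h, and 14.61 and 14.67 at 48 h. Vehicle and 4 h overlapped, and the later arrays all lay higher. The log2 change was -0.01 at 4 h and 0.33 at 16 h (adjusted p = 0.0668, not called, limma). It rose by 0.34 ± 0.10 (SE) at 48 h, a 1.27-fold difference (adjusted p = 0.0467, limma), and kept that call in 2 of the 8 fits that left out an array.

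Further members with changes near these missed the threshold. RPL37, a small zinc-binding protein of the large subunit, read 14.10 and 14.07 in vehicle arrays, 13.99 and 13.98 at 4 h, 14.23 and 14.27 at 16 h, and 14.29 and 14.50 at 48 h. Its change against vehicle was 0.31 at 48 h (adjusted p = 0.0719, limma). RPL31, which sits near the exit of the peptide tunnel, had 14.36 and 14.48 in vehicle arrays, 14.48 and 14.44 at 4 h, 14.62 and 14.61 at 16 h, and 14.73 and 14.70 at 48 h, a change of 0.29 at the last time (adjusted p = 0.0672, limma). All of its later arrays lay above those of vehicle and 4 h. RPL18 read 14.14 and 14.23 in vehicle arrays, 14.37 and 14.29 at 4 h, 14.47 and 14.53 at 16 h, and 14.48 and 14.44 at 48 h. It was the member above 13 with the highest value at 4 h, a change of 0.14, and reached 0.32 at 16 h (adjusted p = 0.0631, limma) and 0.27 at 48 h. RPL12, a protein at the base of the stalk where elongation factors bind, changed by 0.20 at 16 h and 0.27 at 48 h (adjusted p = 0.0871 at 48 h, limma).

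**Figure D3:**
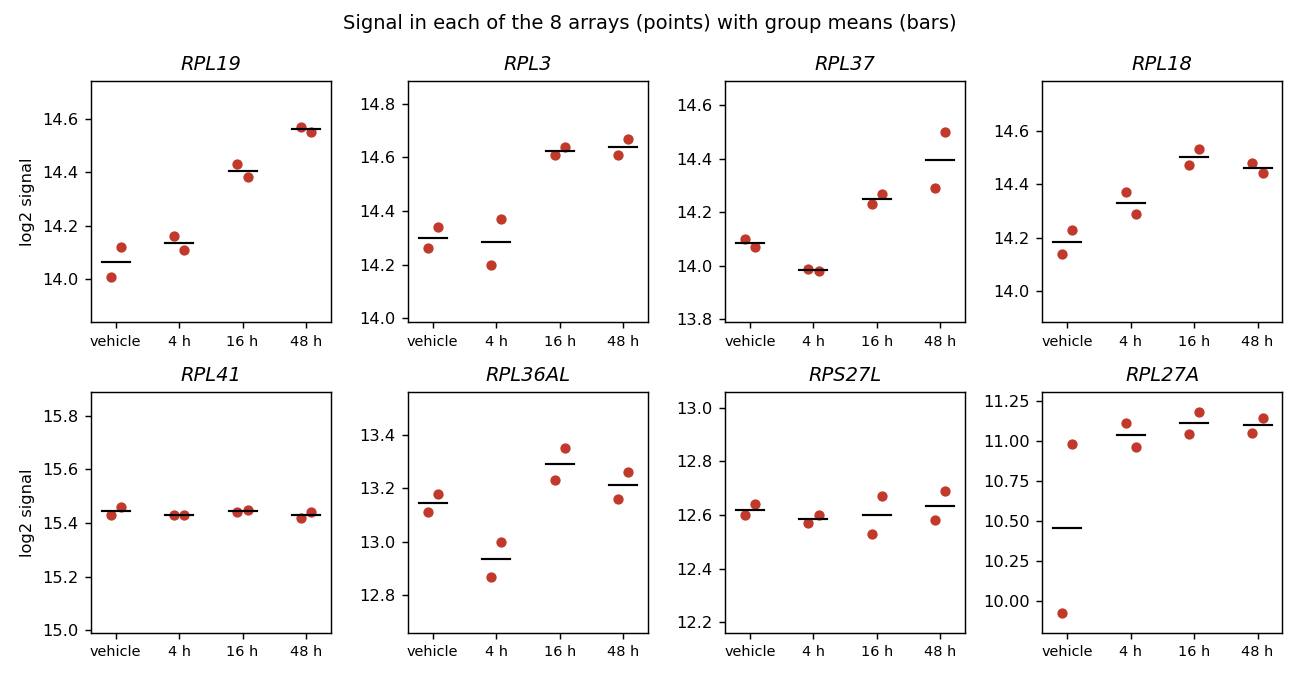
Log2 signal in each array (points) with the mean of 2 arrays (bars) for 8 ribosomal protein genes in vehicle and after 4, 16 and 48 h of DHT; each panel has its own y axis. RPL19, RPL3, RPL37 and RPL18 are higher at the later times, RPL41 and RPS27L hardly differ, RPL36AL is lowest at 4 h, and RPL27A has 1 low vehicle array at 9.93.

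The arrays of the 3 DHT times were also compared with each other, without the vehicle arrays in the contrast, though these still enter the estimate of spread. At 16 h against 4 h the median change of the members was 0.129, with 55 of 57 above 0, against 10593 of the 19775 genes. No member was called (1.28% of all genes were called higher). An unadjusted p below 0.05 was found in 8 members, against 2818 of the 19775 genes. With an intensity trend 4 members were called higher, against 1.61% of all genes. At 48 h against 16 h the median was 0.019, and no member was called (0.349% of all genes called higher). None had an unadjusted p below 0.05, against 2125 of the 19775 genes. None was called with an intensity trend either, against 0.435% of all genes called higher. At 48 h against 4 h the median was 0.152, with 54 above 0, against 9813 of the 19775 genes. In this comparison 2 members were called higher (2.41% of all genes). These were RPL19, which rose by 0.42 ± 0.09 (SE, adjusted p = 0.0168, limma), and RPL37, which rose by 0.41 ± 0.10 (adjusted p = 0.0289, limma). With each array left out in turn, RPL19 was called in 4 of 8 fits and RPL37 in 5 of 8. Each call was lost without either array at 4 h and without DHT 48 h replicate 2, that of RPL19 also without DHT 48 h replicate 1, with adjusted p up to 0.133 for RPL19 and 0.205 for RPL37 (limma). Most of the members' difference thus lay between 4 h and 16 h.

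The test used a spread that assumes 1 typical variance for bright and dim genes. Members varied less between replicates than genes in general, with a median residual SD of 0.049 against 0.103 log2 units. Where the assumed spread was allowed to follow the signal, the median SE of a member's change was 0.059 in place of 0.090. Members called higher then numbered 5 at 16 h and 14 at 48 h, with none at 4 h and none lower, while the share of all genes called higher was 2.99% at 16 h and 3.45% at 48 h. The 14 at 48 h were RPL19, RPL3, RPL31, RPL12, RPL18, RPL37, RPL29, RPS4X, RPL34, RPL32, RPS15A, RPS14, RPL27 and RPL24. Of these, 11 belong to the large subunit, and RPS4X, RPS14 and RPS15A to the small subunit.

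Many members had signals near the top of the range. Probe sets differ in how brightly they bind, so this describes the arrays and not the amounts of the transcripts. The highest mean of any gene was 15.5, for EEF1A1, which carries aminoacyl-tRNA to the ribosome. Among the 100 genes with the highest mean signal 42 were members, and 30 members lay within 1 log2 unit of the highest gene. The members of highest signal were RPL37A, RPL41, RPS18, RPL7 and RPL38. RPL41, which encodes the smallest protein of the ribosome, read 15.43 and 15.46 in vehicle arrays, 15.43 and 15.43 at 4 h, 15.44 and 15.45 at 16 h, and 15.42 and 15.44 at 48 h. RPL37A read 15.45 and 15.44 in vehicle arrays, 15.42 and 15.41 at 4 h, 15.48 and 15.47 at 16 h, and 15.48 and 15.49 at 48 h. RPL41 differed from vehicle by -0.01 at 4 h, 0.00 at 16 h and -0.01 at 48 h. The chosen probe set of RPL37A differed from vehicle by 0.03 at 16 h and 0.04 at 48 h. Dimmer probe sets of RPL37A and RPL38 gave other readings, described below.

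RPS18, at the head of the small subunit, read 15.29 and 15.26 in vehicle arrays, 15.31 and 15.28 at 4 h, 15.41 and 15.41 at 16 h, and 15.41 and 15.42 at 48 h. Its later arrays lay above the earlier ones, with a change of 0.14 at 48 h (adjusted p = 0.392, limma). RPL7 had 15.20 and 15.14 in vehicle arrays, 15.09 and 15.11 at 4 h, 15.23 and 15.23 at 16 h, and 15.23 and 15.25 at 48 h. RPL38, known in mice for a part in the translation of Hox messages, had 15.05 and 15.11 in vehicle arrays, 15.07 and 15.08 at 4 h, 15.16 and 15.19 at 16 h, and 15.18 and 15.21 at 48 h. In both genes the arrays of 16 h and 48 h lay above those of vehicle and 4 h by small margins.

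Signals near the top may be compressed, so members were also described by level. The 30 members within 1 unit of the highest gene had a median change of 0.094 at 16 h and 0.104 at 48 h, while the other 27 had 0.142 and 0.172. At 16 h all 30 were above 0, and at 48 h 29 were. Across the 49 members above a signal of 13, Spearman's rho between level and change was 0.10 at 4 h, -0.40 at 16 h and -0.53 at 48 h, and Pearson's r was 0.23, -0.25 and -0.39. These members share the same 8 arrays and the same scale, so the values are descriptions. In this range the members had median changes of -0.015 at 4 h, 0.126 at 16 h and 0.149 at 48 h. The 289 other genes above 13 had -0.028, -0.035 and -0.060.

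**Figure D4:**
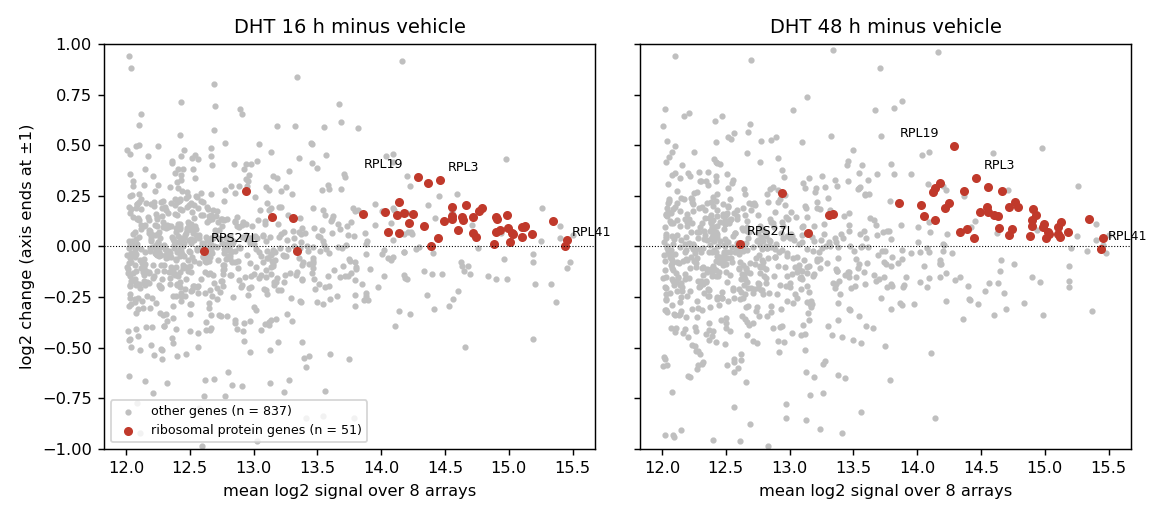
Log2 change at 16 h and at 48 h (y axis) against the mean log2 signal over the 8 arrays (x axis) for genes with a signal above 12: ribosomal protein genes in red and other genes in grey; changes beyond 1 in either direction are not drawn. The red points form a band just above 0 that narrows toward the highest signals, where RPL41 lies at 0.00 and -0.01.

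The small subunit and the large subunit had similar medians. The 21 small subunit genes had medians of -0.010 at 4 h, 0.094 at 16 h and 0.137 at 48 h, and at 48 h all 21 were above 0. The 36 large subunit genes had medians of -0.018, 0.127 and 0.141, with 33 above 0 at 48 h. Both called members belong to the large subunit, and no test of the difference between subunits was made. The highest change among small subunit genes at 48 h was 0.20, in RPS4X, an X-linked gene known to escape X inactivation. It read 14.68 and 14.69 in vehicle arrays, 14.67 and 14.72 at 4 h, 14.88 and 14.88 at 16 h, and 14.88 and 14.88 at 48 h, so its later arrays lay above the earlier ones with almost no spread (adjusted p = 0.209 at 48 h, limma).

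RPS6, the substrate of the S6 kinases that act below mTORC1, read 14.15 and 14.13 in vehicle arrays, 14.21 and 14.08 at 4 h, 14.26 and 14.25 at 16 h, and 14.29 and 14.36 at 48 h. The change was 0.19 at 48 h (adjusted p = 0.256, limma) with both arrays above vehicle. RPS25, used by some viruses and cellular messages for internal initiation, had 13.32 and 13.36 in vehicle arrays, 13.21 and 13.21 at 4 h, 13.34 and 13.30 at 16 h, and 13.41 and 13.59 at 48 h. It was the only small subunit gene apart from RPS27L that was not above 0 at 16 h.

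RPL11, the only measured gene of the 5S particle with which RPL5 binds MDM2, read 14.04 and 14.02 in vehicle arrays, 13.86 and 13.95 at 4 h, 14.12 and 14.08 at 16 h, and 14.19 and 14.17 at 48 h. It was lower at 4 h and higher later, by -0.12 at 4 h and 0.15 at 48 h, with neither called. Of the 9 ribosomal proteins listed as MDM2-binding 6 were measured, and none was called; their median was 0.123 at 48 h. Genes mutated in Diamond-Blackfan anaemia, an inherited failure of red cell production, were measured in 6 of 9 cases (RPS19, RPS24, RPL35A, RPL11, RPS7 and RPS10), with medians of -0.009 at 4 h, 0.141 at 16 h and 0.161 at 48 h and none called.

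Of the 5 paralogues of other members, 2 were above 0 at 16 h (RPL36AL and RPL39L) and 4 at 48 h. RPS27L, a p53-inducible relative of RPS27, read 12.60 and 12.64 in vehicle arrays, 12.57 and 12.60 at 4 h, 12.53 and 12.67 at 16 h, and 12.58 and 12.69 at 48 h, and no group stood apart. Its relative RPS27 read 15.05 and 14.96 in vehicle arrays, 14.94 and 14.94 at 4 h, 15.04 and 15.02 at 16 h, and 15.02 and 15.07 at 48 h, so it too hardly differed from vehicle (0.04 at 48 h). RPL3L, the relative of RPL3 in striated muscle, had 7.04 and 6.86 in vehicle arrays, 6.81 and 6.81 at 4 h, 6.68 and 6.62 at 16 h, and 6.71 and 6.79 at 48 h. All of its DHT arrays lay below both vehicle arrays, with a change of -0.30 at 16 h that missed the threshold (adjusted p = 0.0885, limma). Its mean log2 signal of 6.79 lay below the array medians, where transcript and background were not told apart.

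RPL10L, the testis relative of RPL10, had 9.52 and 9.79 in vehicle arrays, 9.54 and 9.26 at 4 h, 9.54 and 9.63 at 16 h, and 9.54 and 9.83 at 48 h. Its replicates differed by up to 0.30, and all groups overlapped with vehicle. RPL39L, the relative of RPL39 known from male germ cells, read 6.08 and 6.09 in vehicle arrays, 6.04 and 5.97 at 4 h, 6.17 and 6.17 at 16 h, and 6.29 and 6.03 at 48 h, while RPL39 read 15.07 and 14.98 in vehicle arrays, 14.95 and 14.93 at 4 h, 15.05 and 15.12 at 16 h, and 15.04 and 15.13 at 48 h. Neither was called, and at 48 h both overlapped with vehicle.

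RPL36AL, the autosomal retrocopy of the X-linked gene RPL36A, read 13.11 and 13.18 in vehicle arrays, 12.87 and 13 at 4 h, 13.23 and 13.35 at 16 h, and 13.16 and 13.26 at 48 h. It had the lowest value at 4 h among members above a signal of 12, a change of -0.21 (adjusted p = 0.656, limma), with both arrays below vehicle. The probe set of RPL36A read 6.58 and 6.47 in vehicle arrays, 6.60 and 6.25 at 4 h, 6.22 and 6.49 at 16 h, and 6.32 and 6.34 at 48 h. Its change was -0.20 at 48 h (adjusted p = 0.412, limma). Its mean log2 signal of 6.41 also lay below the array medians, as did that of RPL39L at 6.10. Over these 5 paralogues the median change was -0.142 at 4 h, -0.021 at 16 h and 0.031 at 48 h, and none was called. Probe sets of near-identical genes can take signal from each other: 12 of the 57 member probe sets are of the kind marked _x_at and 31 of the kind marked _s_at, which can match more than 1 transcript.

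The members with the highest fitted changes at 4 h and 16 h were RPL27A and RPLP2, and vehicle replicate 1 decided both. RPL27A read 9.93 and 10.98 in vehicle arrays, 11.11 and 10.96 at 4 h, 11.04 and 11.18 at 16 h, and 11.05 and 11.14 at 48 h. Replicate 2 of vehicle lay within the DHT arrays. The changes of 0.58 at 4 h, 0.66 at 16 h and 0.64 at 48 h (adjusted p = 0.592, 0.149 and 0.139, limma) came to 0.06, 0.13 and 0.12 without vehicle replicate 1. RPLP2, one of the acidic stalk proteins that recruit elongation factors, read 9.80 and 10.37 in vehicle arrays, 10.52 and 10.28 at 4 h, 10.29 and 10.67 at 16 h, and 10.41 and 10.39 at 48 h. Its change of 0.40 at 16 h was 0.11 in the fit that left out vehicle replicate 1, and -0.08 once DHT 16 h replicate 2 was left out as well. RPLP1, its partner in the stalk, changed by 0.05 at 16 h and 0.06 at 48 h.

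Other probe sets of the same genes gave a further reading of the members, fitted together with all probe sets. The 61 other probe sets that named 1 member alone covered 34 genes and had medians of 0.039 at 4 h, 0.164 at 16 h and 0.207 at 48 h. Of these, 52 were above 0 at 16 h and 57 at 48 h. The 64 probe sets that listed a member among several symbols had medians of 0.015, 0.129 and 0.180. Both readings share the arrays and the RNA with the chosen probe sets, so they are not independent samples. In that fit 0 of the 57 chosen probe sets were called at 16 h and 1 at 48 h. Of the 61 others 1 was called at 16 h and 2 at 48 h, all higher. The share called among all probe sets was not counted in that fit, so these counts are descriptions. RPL22, which binds RNA in the nucleus as well as the ribosome, gave unequal readings. The chosen probe set changed by 0.04 at 16 h and 48 h, while another rose by 0.49 at 16 h and 0.64 at 48 h (adjusted p = 0.028 and 0.006, limma over all probe sets). The remaining RPL22 probe sets were not called. Those with signals of 14.4 and 14.2 changed by 0.02 and 0.05 at 16 h, and by 0.05 and 0.06 at 48 h. That with a signal of 12.4 changed by 0.21 at 16 h and 0.37 at 48 h. A further probe set of RPS24 rose by 0.70 at 48 h (adjusted p = 0.032, limma over all probe sets), against 0.05 for the chosen one, which was not called. RPS24 messages are known to be spliced in several forms. RPL37A and RPL38 were unequal too. A probe set of RPL37A with a signal of 13.3 changed by 0.41 at 4 h, 0.45 at 16 h and 0.59 at 48 h. Another, at 9.2, changed by -0.04, -0.16 and 0.06. The other probe sets of RPL38, both at 13.4, changed by 0.51 and 0.50 at 4 h, 0.59 and 0.50 at 16 h, and 0.59 and 0.55 at 48 h. None of these was called.

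Start sites from the RefSeq promoter table (build GRCh38.p14) were available for 49 of the 57 members. The following 30 bases, 15 on each side of the start, are shown because they hold or lack the pyrimidine run that marks TOP messages in the members described above. Capitals mark the unbroken pyrimidine run that begins at the first transcribed base.
RPL19 (chr17:39200308-39200337, plus strand): gagcgagctctttccTTTCgctgctgcggc
RPL3 (chr22:39319609-39319638, minus strand): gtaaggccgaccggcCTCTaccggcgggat
RPL18 (chr19:48619164-48619193, minus strand): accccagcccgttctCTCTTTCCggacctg
RPL31 (chr2:101002274-101002303, plus strand): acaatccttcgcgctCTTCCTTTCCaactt
RPL41 (chr12:56116618-56116647, plus strand): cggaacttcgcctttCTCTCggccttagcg
RPS27 (chr1:153990747-153990776, plus strand): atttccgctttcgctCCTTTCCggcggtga
RPS27L (chr15:63157463-63157492, minus strand): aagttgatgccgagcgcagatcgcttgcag
RPL36AL (chr14:49620612-49620641, minus strand): ctgtttcttccctttCCTgttaggcgagag
RPL10L (chr14:46651767-46651796, minus strand): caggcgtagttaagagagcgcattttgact

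RPL18, RPL31, RPL41 and RPS27 carry a run of 5 or more bases that opens with C, and the paralogues RPS27L and RPL10L carry none. RPL19, the member with the clearest change, has a run of 4 that opens with T at this annotated start. The bases just before that start are pyrimidines too, so the length of the run depends on the annotation. RefSeq lists a further RPL19 start upstream without a run. A start with C and at least 5 pyrimidines from it was found in 34 of the 49 members (69.4%), against 5.14% of 27305 genes with an entry. The 34 with such a run had median changes of 0.109 at 16 h and 0.15 at 48 h, and the 15 without it 0.135 and 0.098. The medians were above 0 with and without the run, and no test was made. Runs were counted from annotated starts only, so a start placed a few bases away could move a member between the groups.

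Short motifs were searched on both strands of the 300 bases around each start, from 250 before it to 50 after it. The ETS core CTTCCG was held by 34 members (69.4%, against 22.6% of all genes) and the SP1 box GGGCGG by 29 (59.2%, against 48.3%). The E-box CACGTG, the letters that MYC with MAX is known to bind, was held by RPL19, RPS19 and RPS28 (6.12%, against 8.77%). In RPL19 it lay only in the window of the further upstream start, not in that of the start shown above. In RPS19 it lay only in the window of a start without a pyrimidine run. The TATA box TATAAA was found in RPL10L, RPL3, RPS28 and RPS3 (8.16%, against 14%). AGAACA, 1 arm of the paired sequence bound by the androgen receptor, was found in RPL18, RPL34, RPL39, RPS18, RPS24 and RPS27 (12.2%, against 17.5%). An ETS core read on the other strand can share bases with an SP1 box, and one read forward with a pyrimidine run. A match in a window is a description of its letters only.

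Genes tied to the ribosome outside the rule were read from 7 lists. Of 4 measured ribosome components and paralogues outside the rule (FAU, RPL7L1, RPL22L1 and RPL26L1), only RPL22L1 was called. RPL22L1, the relative of RPL22, rose by 0.70 ± 0.11 (SE) at 16 h (adjusted p = 0.0022, limma) and by 0.42 ± 0.11 at 48 h (adjusted p = 0.0286, limma). FAU, whose product is a ubiquitin-like protein fused to a small subunit protein, changed by 0.18 at 16 h and 0.10 at 48 h, neither called. Of 16 measured TOP messages for other proteins, 1 was called, beside 3.13% of all genes called higher at 48 h. It was EIF3E, a subunit of initiation factor 3, which rose by 0.36 at 48 h (adjusted p = 0.0312, limma). The medians of the 16 messages were -0.02 at 4 h, 0.04 at 16 h and 0.07 at 48 h. EEF1A1 changed by 0.06 at 48 h.

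Of 25 initiation factors 2 were called at 16 h and 1 at 48 h, all higher, where the share of all genes called higher was 2.55% and 3.13%. EIF3D rose by 0.35 at 16 h and 0.34 at 48 h (adjusted p = 0.0389 and 0.0332, limma), and EIF5, which triggers GTP hydrolysis at the start codon, rose by 0.41 at 16 h (adjusted p = 0.0200, limma) and was at 0.05 at 48 h. Among 17 chaperones and transport factors of ribosomal proteins 3 rose at 16 h, beside 2.55% of all genes: RRS1 by 0.48, BCCIP by 0.43 and PDCD2L by 0.58 (adjusted p = 0.0362, 0.0364 and 0.0023, limma). At 48 h PDCD2L was 0.41 higher, while NMD3, the export adaptor of the large subunit, fell by 0.45 and HEATR3 fell by 0.52, beside 3.13% of all genes called higher and 6.38% lower. In yeast the relative of RRS1 brings the 5S particle, which holds RPL11, into the large subunit.

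Of 15 genes of mTORC1 signalling and TOP control, SESN2, which restrains mTORC1 when leucine is short, fell by 0.52 at 16 h and by 0.66 at 48 h. At 48 h DDIT4, another inhibitor of mTORC1, was 0.72 higher, and EIF4EBP1, the repressor of cap-dependent translation, 0.43 higher. The list held 2 genes called higher and 1 lower at 48 h, beside 3.13% and 6.38% of all genes, with a median of -0.01. Of 23 genes of RNA polymerases I and III and their factors, which make ribosomal RNA, POLR3E rose by 0.73 at 4 h (adjusted p = 0.0143, limma), when no ribosomal protein gene was called. At 16 h POLR3E, POLR1D and GTF3A were higher by 0.66, 0.55 and 0.44, and TAF1A fell by 0.83, beside 2.55% of all genes called higher and 4.3% lower. At 48 h POLR1D and POLR3E were still called higher, by 0.55 and 0.52, and TAF1A lower, by 0.67, beside 3.13% and 6.38% of all genes. The median of this list was 0.10 at 4 h and -0.03 at 48 h.

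The 75 measured genes of the mitochondrial ribosome, a separate particle with its own proteins, had medians of 0.04 at 4 h, 0.05 at 16 h and 0.03 at 48 h. At 16 h 6 were called higher, and at 48 h 7 were called higher and 3 lower, where 2.55% of all genes were called higher at 16 h and 3.13% higher and 6.38% lower at 48 h. MRPL12, MRPL34 and MRPL24 rose by 0.64, 0.54 and 0.50 at 16 h. At 48 h MRPL21 rose by 0.52, and MRPL54 fell by 0.52. MYC itself rose by 1.67 at 4 h, 1.31 at 16 h and 1.15 at 48 h (adjusted p = 0.0002, 0.0001 and 0.0002, limma). The 4 h value was the highest of the 3. The medians of the ribosomal protein genes were -0.016 at 4 h, 0.116 at 16 h and 0.137 at 48 h. A part of MYC in these values was not tested.

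**Figure D5:**
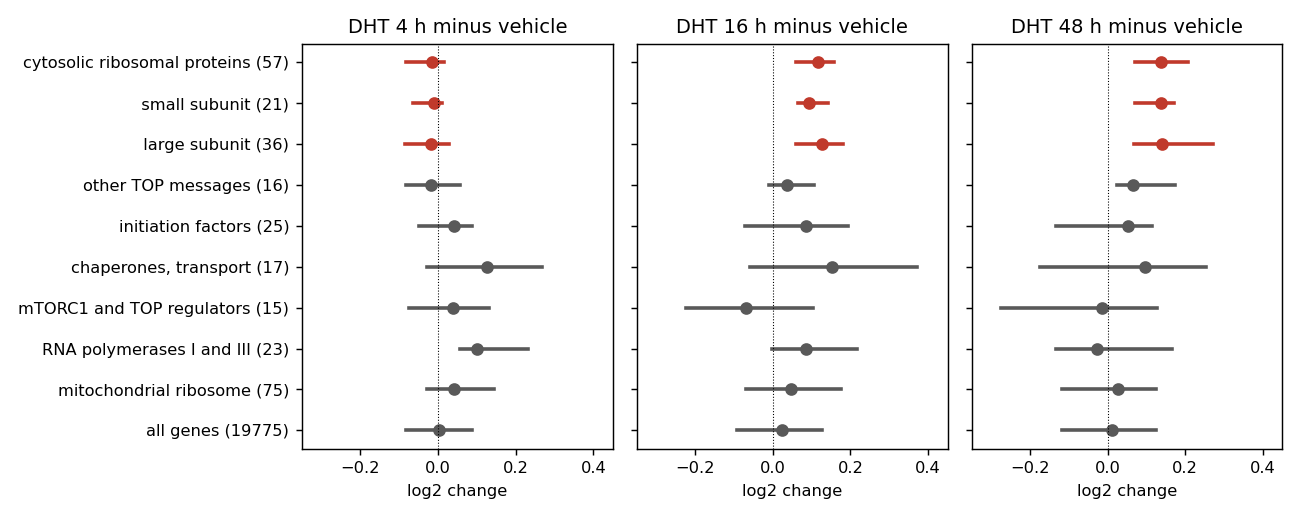
Median log2 change (points) and the range from the lower to the upper quartile (bars) of the ribosomal protein genes, their subunits, 6 lists of other genes and all genes at 4, 16 and 48 h, with the number of genes measured in brackets. At 16 h and 48 h the bars of the ribosomal protein genes lie wholly above 0, with quartiles of 0.061 and 0.158 at 16 h and 0.070 and 0.207 at 48 h.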

How the data were processed

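The submitters' table holds log2 signals of 54675 probe sets on 8 Affymetrix arrays, deposited after RMA per the submitters' processing notes; its version was not stated there. The deposited log2 values run from 3.68 to 15.6 and were not normalised again. Of the probe sets, 62 were controls, 41091 named 1 gene symbol in the platform annotation, 1801 several and 11721 none; all 57 members were found in RefSeq.

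limma 3.58.1 (R 4.3.3) fitted the 4 group means over 8 arrays (4 residual and 7.21 prior degrees of freedom), two-sided, with Benjamini-Hochberg adjustment over 19775 genes in each comparison and a threshold of 0.05. An exact permutation test of 2 arrays against 2 cannot go below 0.333, so none was run. The fit was tested on simulated data. No dim genes were removed.

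Per-array values are given for members called in a comparison with vehicle, the 3 highest and 3 lowest changes at each time, the 5 highest signals and the paralogues; further members and probe sets were chosen after their values were seen. Of each other list, up to 4 called genes with the largest change at each time are named, and MYC. The members and lists were chosen with earlier results of these data known. Promoter sequences come from RefSeq (GRCh38.p14), 300 bases a start. The alternatives tried were other scalings, a filter on dim genes, other choices of probe set, other spread models, array weights, a replicate block, each array left out in turn, and members near the highest signal left out. Those added after the data had been seen were an ordinary linear model and a fit without the 2 arrays that stand apart.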

Additional observations from a re-analysis of the deposited data

Results flagged for a closer look

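RPL19 and RPL37 differed between times of DHT treatment in a contrast without the vehicle arrays, which enter the test only through the shared spread. RPL19 was 0.42 higher on the log2 scale at 48 h than at 4 h (adjusted p = 0.0168, limma over all genes), in 2 of 2 arrays. RPL37 was 0.41 higher at 48 h than at 4 h (adjusted p = 0.0289, limma over all genes), in 2 of 2 arrays. Both calls rest on 2 arrays a group. With each array left out in turn, RPL19 was called in 4 of 8 fits (highest adjusted p = 0.133, limma) and RPL37 in 5 of 8 (highest adjusted p = 0.205, limma). Single arrays far from their group were not sought, since each group holds 2.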

How the results depend on the processing

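The median change of the members held in a run stayed above 0 at 16 h and 48 h in each alternative run, while single calls moved. Not every run held all 57 members. The run without members near the highest signal left out 30, and the run without _x_at and _s_at probe sets held only members with another kind. The calls of RPL19 at 16 h and RPL3 at 48 h were lost in most of them. Quantile normalisation called 1 member at 48 h, 1 at 48 h against 4 h, 2 genes of the ribosome components outside the rule and 2 other TOP messages. Scaling on housekeeping genes gave a median of 0.025 at 4 h and called 0 members at 16 h, 1 at 48 h and 1 at 48 h against 4 h. The mean of all probe sets gave a median of 0.0078 at 4 h and 0.159 at 48 h, a signal of 12.9, and 3 members called at 16 h, 5 at 48 h, 1 at 16 h against 4 h and 7 at 48 h against 4 h, with 2 components outside the rule and 0 TOP messages. Without _x_at and _s_at probe sets the medians were 0.011, 0.137 and 0.158 and the signal 9.3, with 4 members called at 48 h, 1 at 16 h against 4 h and 1 at 48 h against 16 h, 0 TOP messages, 3 chaperones and 3 mitochondrial genes. Adjustment over all probe sets called 0 members at 16 h, 1 at 48 h and 0 at 48 h against 4 h, 0 TOP messages, 0 initiation factors, 1 chaperone and 5 mitochondrial genes. With only the 4 arrays compared the counts were 0 members at 16 h, 1 at 48 h and 0 initiation factors. With an intensity trend they were 5 at 16 h, 14 at 48 h, 4 at 16 h against 4 h and 13 at 48 h against 4 h, with 2 components outside the rule, 3 TOP messages and 4 initiation factors. Array weights called 0 members at 16 h, 4 at 48 h against 4 h and 3 chaperones. The labels do not say whether shared replicate numbers pair the arrays. The correlations of replicate differences between groups ran from -0.24 to 0.20, which cannot settle it with 1 difference a group. The fit with a replicate block called 0 members at 16 h and 1 at 48 h.

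Without the members within 1 unit of the highest gene the medians were -0.040, 0.142 and 0.172 and the median signal 14.1. Of the alternatives chosen after seeing the data, an ordinary linear model per gene called 1 member at 48 h against 4 h, 0 components outside the rule, 0 TOP messages, 1 initiation factor, 1 chaperone, 0 polymerase genes and 2 mitochondrial genes. Without the 2 arrays that stand apart 0 members were called at 16 h and 1 at 48 h, where the median was 0.121, and RPLP2 at 16 h came to -0.083; 0 components outside the rule, 0 TOP messages, 0 initiation factors, 3 chaperones, 1 polymerase gene and 4 mitochondrial genes were called.

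With each array left out in turn, 0 to 1 member was called at 4 h (1 without vehicle replicate 2), 0 to 2 at 16 h, 0 to 2 at 48 h (0 without vehicle replicate 1) and 0 to 4 at 48 h against 4 h. The medians ran from -0.035 to -0.016 at 4 h and from 0.121 to 0.139 at 48 h, and the median signal from 14.5 to 14.6. RPL10L at 16 h ran from -0.20 to 0.059 and RPL41 at 48 h from -0.029 to 0.0028. The lists ran from 0 to 2 called TOP messages, 0 to 4 initiation factors, 1 to 6 chaperones, 1 to 6 polymerase genes and 4 to 16 mitochondrial genes. A lone array left in a group was assumed to vary like the other groups. The cause of these moves was not tested. Signals near the highest on the arrays may limit how large a change could be read, which was not tested. No measure of background was used.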
